A study of Mus musculus with 4 samples.

Results

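The transcripts described here are those of 9 cathepsins (Ctsa, Ctsb, Ctsc, Ctsd, Ctsf, Ctsh, Ctsl, Ctss and Ctsz) and of cystatin C (Cst3). They were chosen by gene symbol, and all 10 were found among the 28692 genes of the count tables. The data are single-cell RNA sequencing counts from 4 libraries, each from a male C57BL/6J mouse of 90 days. Every mouse was injected with phosphate-buffered saline (PBS) into the tail vein, and its cortex and hippocampus were broken up by cold Dounce homogenisation, a mechanical dissociation kept cold throughout. In the study's methods, the sorter clogged during the last mouse of this set. Its cells sorted until then were discarded, and the rest went back on ice before being sorted again. The repeated moves between ice and sorter gave its cells extra time at room temperature. The study calls that mouse sample 4, and the titles, numbered 2, 3, 6 and 8, do not say which library it is. Cells double positive for CD45 and CD11b, the surface proteins of brain myeloid cells, were sorted before droplets were made. The labels give an interval of 24 hours between injection and sacrifice. The study's methods give another, so this interval is uncertain. All 4 libraries form 1 group, called here cold Dounce PBS (n = 4), and no treated or differently dissociated mice belong to it. The replicates 1 to 4 carry the title numbers 2, 3, 6 and 8, which have no order. The questions asked were how much of the transcriptome these genes take up, how evenly cells and mice carry them, and in which cell states they differ.

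Cathepsins are proteases of the lysosome, the compartment in which microglia break down the debris, synaptic material and myelin they engulf. Most of them are cysteine proteases of the papain family, while Ctsd is an aspartic protease and Ctsa a serine carboxypeptidase. Cystatin C is a small secreted protein that blocks the active site of cysteine cathepsins, and it does not inhibit the aspartic protease Ctsd. Ctss, Ctsl and other members also trim the invariant chain and antigens on the way to MHC class II molecules. Many lysosomal genes carry in their promoters a palindromic E-box, CACGTG, the core of the site bound by TFEB, TFE3 and MITF.

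The genes lie on 7 chromosomes (GRCm38, GENCODE M21 annotation), and all are protein coding. On chromosome 2 lie Cst3 (ENSMUSG00000027447, 148871722 to 148875692, minus strand), Ctsa (ENSMUSG00000017760, 164832873 to 164841032, plus) and Ctsz (ENSMUSG00000016256, 174427493 to 174439039, minus). On chromosome 7 lie Ctsc (ENSMUSG00000030560, 88278085 to 88310888, plus) and Ctsd (ENSMUSG00000007891, 142375911 to 142388038, minus). Ctss (ENSMUSG00000038642) lies on chromosome 3 at 95526786 to 95556403, plus strand, and Ctsh (ENSMUSG00000032359) on chromosome 9 at 90054152 to 90076089, plus strand. Ctsl (ENSMUSG00000021477) lies on chromosome 13 at 64359337 to 64370890, minus strand, and Ctsb (ENSMUSG00000021939) on chromosome 14 at 63122462 to 63145923, plus strand. Ctsf (ENSMUSG00000083282) lies on chromosome 19 at 4855130 to 4860918, plus strand. The annotation places no gene of the count tables on the same strand within any of these 10 spans. On the opposite strand Neurl2 and Pltp overlap Ctsa, Fdft1 overlaps Ctsb, Gm26522 overlaps Ctsc and Nelfcd overlaps Ctsz.

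Promoter windows of 250 bases before the start given by RefSeq (GRCm38.p6) were at hand for 8 of the 10 genes. The RefSeq starts match the ends of the GENCODE spans above for Ctsc, Ctss and Ctsz, and do not match them for the other genes with a window. Of 250 bases, 211 of the Ctsd window, 180 of the Cst3 window and 35 of the Ctsf window lie inside the gene's GENCODE span. These windows are only in part upstream of the gene. All of the Ctsl window lies inside its span, so none of it is upstream by that annotation. The runs below are, for each of 3 windows, the longest stretch outside every GENCODE exon. The Cst3 window has further bases outside exons that are not shown. These runs were chosen because their genes, with Ctsl, had lower counts together in the macrophage and monocyte cells described further on. They are read 5′ to 3′ on the gene's strand, with CACGTG in capitals.
Ctsd, chr7:142388039-142388077, minus strand: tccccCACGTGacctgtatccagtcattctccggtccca
Ctsf, chr19:4854915-4855129, plus strand: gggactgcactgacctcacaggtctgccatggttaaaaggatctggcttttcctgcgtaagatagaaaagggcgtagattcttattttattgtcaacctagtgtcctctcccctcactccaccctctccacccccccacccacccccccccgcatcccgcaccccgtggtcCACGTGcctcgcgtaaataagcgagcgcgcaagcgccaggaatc
Cst3, chr2:148875693-148875762, minus strand: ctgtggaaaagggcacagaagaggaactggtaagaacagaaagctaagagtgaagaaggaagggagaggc
The Ctsd window held the hexamer at 2 places, beginning 245 and 98 bases before the RefSeq start, and the nearer of them lies in an annotated exon. The Ctsf window held it once, 79 bases before the start, and the Ctsl window once, at 236 bases. The Cst3 window held none. Among the other genes with a window, Ctsa held it in 1 of its 2 windows and Ctsc, Ctss and Ctsz did not. CACGTG is its own reverse complement, so both strands were searched at once, and 6.02% of all 32851 promoter windows of this length held it. The longer palindrome TCACGTGA, which contains CACGTG, was in the Ctsa and Ctsd windows and in 0.785% of all windows. In the Ctsd window it lies at the nearer place, so the Ctsd run above does not hold it. These matches describe the sequence alone, since binding was not measured.

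The deposited matrices held 13138 barcodes, of which 13002 were kept as cells. Barcodes under 400 genes, or above 10% of UMIs from mitochondrial genes, were dropped. A UMI (unique molecular identifier) stands for 1 captured RNA molecule. Library totals lay between 5867333 and 11275195 UMIs and the median UMIs per cell between 1905 and 2936. Of the barcodes, 84 occurred in 2 or more libraries. The sorted cell type was checked against its markers. The 12 microglial markers summed to 44543 to 45858 CPM (UMIs scaled to the same total in each library) in the 4 libraries, against 1.54 to 1.89 CPM for 4 neuronal, 0.856 to 5.56 CPM for 4 astrocyte and 50.3 to 59.3 CPM for 4 oligodendrocyte markers. Erythroid and neutrophil markers had 0 UMIs. The labels do not say that the mice shared a litter, a day or a sort, and the spread between libraries can hold technical as well as animal differences.

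Cst3 was the most abundant of all transcripts by mean level, above the noncoding RNA Malat1. It took 5.37%, 5.78%, 6.59% and 6.14% of the UMIs in replicates 1 to 4, or 53697, 57822, 65875 and 61431 CPM (mean 59706 ± 5186, SD, n = 4). The highest library was thus 1.23 times the lowest. Together the 10 genes took 8.42%, 8.97%, 9.45% and 9.10% of all UMIs (8.98% ± 0.430). The 9 cathepsins made up 3.01% ± 0.138 and the 7 cysteine cathepsins 1.81% ± 0.0992. The 10x chemistry counts the 3′ end of each molecule, so these CPM are per molecule, and levels of different genes were compared without division by length.

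Ctsd, the major aspartic protease of lysosomes, was the leading cathepsin and stood 6th among 15581 genes with a UMI. Its levels were 11085, 11662, 10611 and 11309 CPM (mean 11167 ± 439.97). Ctss, a cysteine protease that stays active at neutral pH and is a mark of myeloid cells, stood 9th with 9663, 10224, 9190 and 9258 CPM (9584 ± 475). Both varied little between mice, and in each library Ctsd was above Ctss. The ratio of their means was 1.17.

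The other cysteine cathepsins were present at lower levels. Ctsb, an endopeptidase that also works as a dipeptidyl carboxypeptidase, had 2684, 2758, 2536 and 2552 CPM, and Ctsz, a carboxypeptidase, had 2016, 2097, 1986 and 2035 CPM. Ctsl, an endopeptidase of broad specificity, had 1784, 1747, 1448 and 1495 CPM. Ctsh, an aminopeptidase, had 1359, 1418, 1116 and 1193 CPM. For Ctsl and Ctsh replicates 1 and 2 thus lay above replicates 3 and 4, and the same split held for Ctsc, the dipeptidyl peptidase that activates granule serine proteases, at 774, 777, 605 and 659 CPM. Ctsf, the least abundant, had 270, 306, 279 and 303 CPM, and its counting interval in replicate 1 ran from 258 to 282 CPM (exact Poisson, 95%, counting error only). Ctsa, the serine carboxypeptidase that also protects lysosomal sialidase and galactosidase, had 821, 889, 842 and 803 CPM.

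**Figure D1:**
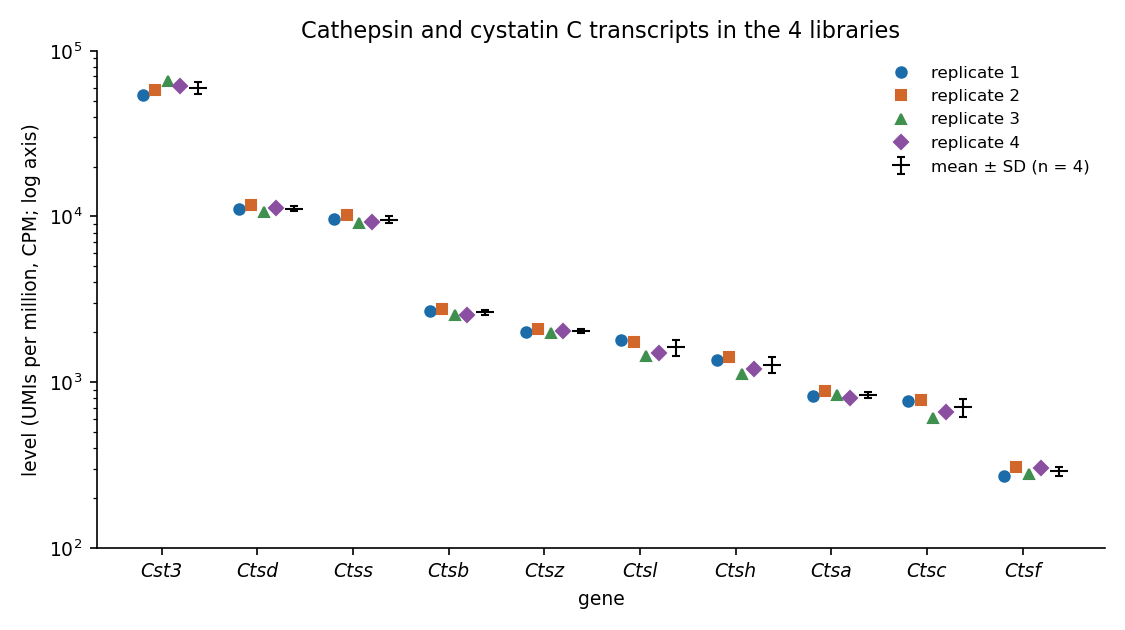
Level of each gene in CPM (log axis) in the 4 cold Dounce PBS libraries, with a symbol per library and the mean ± SD (n = 4) beside them. Cst3 lies near 59706 CPM, Ctsd and Ctss near 11167 and 9584 CPM, and Ctsf lowest at a mean of 290 CPM.

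The order of the 10 levels was the same in every library. No neighbours in that order overlapped, with narrow gaps between Ctsl and Ctsh, whose lowest and highest values were 1448 and 1418 CPM, and between Ctsa and Ctsc, at 803 and 777 CPM. The spread between libraries was smallest for Ctsz, with a coefficient of variation of 2.31%, and largest for Ctsc at 12.2%, Ctsh at 11.1% and Ctsl at 10.6%. The median SD of log2(CPM + 1) was 0.0792 over the 10 genes, beside 0.0901 over the 267 genes at 500 CPM or more. No library stood apart for any of the 10 genes in Dixon's range test, which divides the gap between an extreme value and its neighbour by the whole range, set against its 95% critical value for 4 libraries. The largest ratio was 0.551, for Ctsz. Among all 7656 genes with a mean of at least 10 CPM, 4.62% had a library apart by the same test.

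Cst3 ran against several cathepsins across the libraries. It was highest in replicate 3, the library with the lowest Ctsb, Ctsc, Ctsd, Ctsh, Ctsl, Ctss and Ctsz. The Cst3 to cysteine cathepsin ratio, in UMIs, was therefore 2.89, 2.99, 3.84 and 3.51 in replicates 1 to 4 (3.31 ± 0.445). Replicates 3 and 4 were above replicates 1 and 2, with a Dixon ratio of 0.316. The median mitochondrial share per cell was 1.38%, 1.26%, 1.12% and 1.18% in the same order, and its part in this difference was not tested. With TMM factors, which scale libraries by the bulk of their genes, the highest and lowest library of each gene were the same.

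Nearly every cell carried the abundant members. Cst3 and Ctss had a UMI in 100% of cells in all 4 libraries, and Ctsd in 99.9% to 100%. To compare genes and libraries at equal depth, each cell was thinned at random to 1000 UMIs, which left 12737 cells and dropped 265 shallower ones. At this depth the share of cells with a UMI was 91.1% ± 0.766 for Ctsb, 84.8% ± 1.39 for Ctsz, 77.6% ± 3.46 for Ctsl and 71.0% ± 3.54 for Ctsh. It was 56.1% ± 2.05 for Ctsa, 49.5% ± 4.02 for Ctsc and 24.9% ± 1.81 for Ctsf. Unthinned, the Ctsf share had a mean of 49.8% and ranged from 39.9% in replicate 1, the library with the fewest UMIs per cell, to 58.5% in replicate 2, the one with the most. No class of these cells is known to lack the genes, so no background share from free RNA could be set beside them.

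For the least abundant members the shares were near those that random sampling of a uniform population gives. For Ctsf a Poisson distribution with the same mean of 0.290 UMIs predicts 25.2% and for Ctsa 57.0%, beside the measured 24.9% and 56.1%. The measured shares fell further below the prediction for Ctsl (77.6% against 79.9%), Ctsz (84.8% against 86.9%) and Ctsb (91.1% against 93.0%). The Fano factor (variance over mean, 1 for pure sampling) was 1.03 ± 0.0331 for Ctsf, 1.05 ± 0.0550 for Ctsa, 1.08 ± 0.0216 for Ctsc and 1.08 ± 0.0267 for Ctsh. It was 1.14 ± 0.00454 for Ctsl, 1.17 ± 0.0243 for Ctsz, 1.35 ± 0.0418 for Ctsb, 1.69 ± 0.0853 for Ctss and 1.86 ± 0.0908 for Ctsd. Cst3 had the largest factor, at 5.19 ± 0.759, with median counts of 52, 56, 63 and 59 UMIs in 1000. The deeper counts of an abundant gene also show more of a given spread between cells, so the factors do not rank the genes by relative spread.

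**Figure D2:**
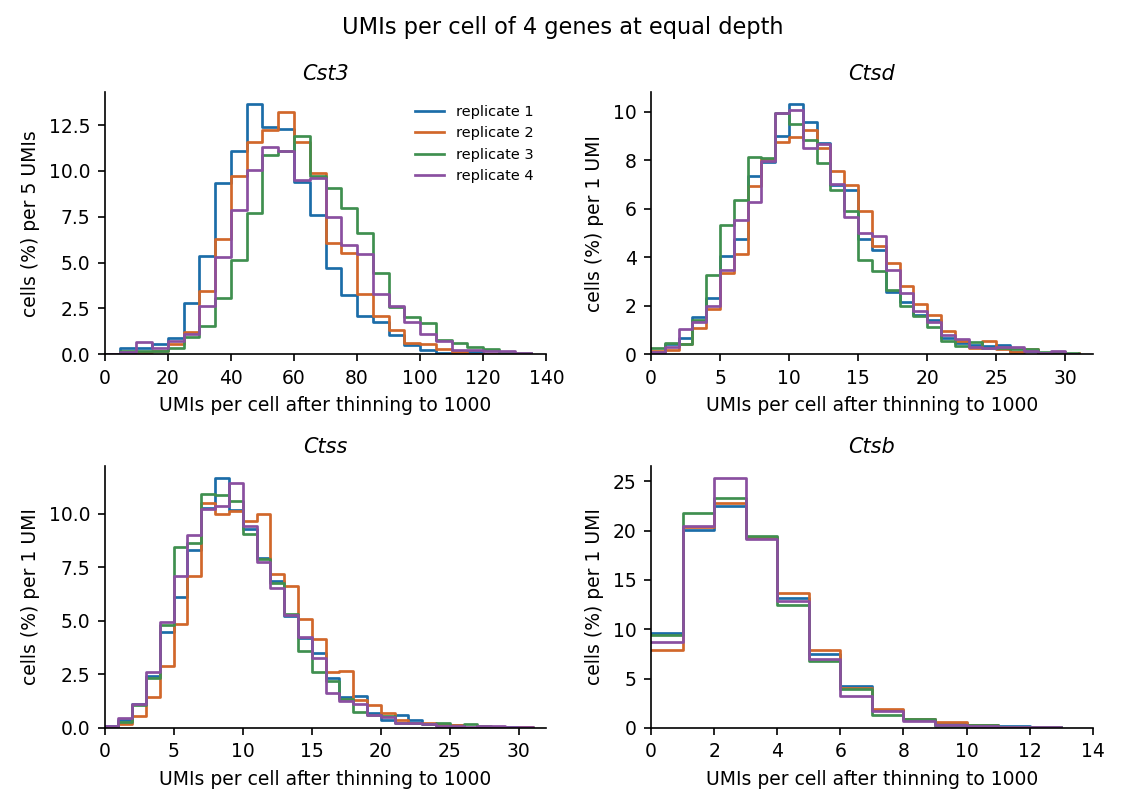
Share of cells (%) by UMIs per cell after thinning to 1000 UMIs, for Cst3 (bins of 5 UMIs), Ctsd, Ctss and Ctsb (bins of 1 UMI), with a line per library. The 4 lines nearly coincide for Ctsb, and for Cst3 the line of replicate 1 lies to the left of that of replicate 3, whose medians are 52 and 63 UMIs.

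No thinned cell was without a Cst3 UMI, for the lowest count among the 12737 thinned cells was 2 UMIs. The cells with the fewest Cst3 UMIs were set apart as a description. The lowest 1%, with ties, were 138 cells with 2 to 21 UMIs, and 71 of them (51.4%) belonged to the macrophage and monocyte or MHC class II cells defined next, which made up 1.16% of all thinned cells. The limit was set over all libraries. Of the 138 cells, 57, 20, 17 and 44 were from replicates 1 to 4 (1.63%, 0.545%, 0.682% and 1.43% of their cells). Replicate 1, with the lowest Cst3, gave the most, and replicate 4, at 61431 CPM, the next most. The part of the library's Cst3 level in these shares was not tested. These 138 cells had a median of 12.5 UMIs of the 7 cysteine cathepsins, against 18 over all cells.

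Cell states were drawn from 7 gene lists that contain none of the 10 genes. For 5 lists (interferon-responsive genes, MHC class II, macrophage and monocyte, chemokine, and disease-associated microglia, DAM) the state cells were those with the most list UMIs among thinned cells, at most 2% of all cells for interferon, chemokine and DAM and at most 1% for the others. The comparison cells were all others of the same library. For the immediate early and ribosomal protein lists the top 25% and the bottom 25% of each library were compared. Cuts were at whole UMIs, so that the shares fell short of these limits, unequally for the immediate early list. Its top shares were 22.1%, 11.9%, 23.7% and 18.5% in replicates 1 to 4, and its bottom shares 23.1%, 19.8%, 23.0% and 8.40%. The classes are ranges of a count and not distinct types. At the cuts stood 60 of the 193 interferon, 10 of the 78 class II, 19 of the 118 macrophage, 37 of the 64 chemokine and 32 of the 58 DAM cells, and 143, 66, 41, 301 and 417 cells lay 1 UMI below. Counts were summed per library and state, and changes were tested with edgeR's quasi-likelihood test with library as a block, adjusted over all genes tested (Benjamini-Hochberg, called under 0.05). Changes are given as log2 of state over comparison level ± SE. Libraries with fewer than 15 state cells were left out at first, which left 2 libraries for MHC class II and DAM and made the chemokine fit impossible. For these lists a fit with all 4 libraries is given as well, a choice made after seeing the data.

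In cells high for macrophage and monocyte genes such as Mrc1, Pf4 and Lyz2 (118 cells, 22 to 45 per library), the inhibitor and a subset of the proteases were lower while the others were not called. Ctsd had 4447, 7645, 6417 and 4789 CPM in these cells and 11113, 11695, 10655 and 11429 CPM in the others. Ctsl had 706, 1283, 1105 and 672 CPM against 1788, 1750, 1450 and 1510 CPM. Ctsf had 112, 196, 158 and 103 CPM against 270, 307, 280 and 307 CPM. For these proteases all 4 libraries moved down and the state and comparison values did not overlap. Cst3 had 22411, 43632, 34022 and 23998 CPM against 53905, 57966, 66406 and 62149 CPM, again without overlap.

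Of the 10 genes, 4 fell in the macrophage and monocyte cells and 0 rose. The changes were -0.94 ± 0.23 for Ctsd (adjusted p = 0.00115, edgeR), -1.01 ± 0.23 for Ctsf (2.8e-04), -0.77 ± 0.20 for Ctsl (1.7e-03) and -0.97 ± 0.30 for Cst3 (0.014). Over all 9674 genes tested 4.61% were called lower and 5.84% higher, and the median change was -0.21 over all genes and -0.39 over the 10. Without replicate 1, 3 or 4 in turn Cst3 was not called (-0.87, -1.01 and -0.91), and without replicate 1 Ctsc was called higher at 0.62. Ctsc was also called higher without the replicate block (0.53) and with comparison cells weighted by their depth (0.65). Ctsb, Ctsh and Ctss were not called (0.15 ± 0.20, -0.17 ± 0.19 and -0.38 ± 0.23), and Ctsc stood at 0.49 ± 0.19 with an adjusted p of 0.085. In the same cells the 12 microglial markers summed to 12971 to 27407 CPM, against 44702 to 46426 CPM in the others, so the state cells are a class with fewer microglial transcripts.

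Of the 25 related lysosomal genes, 19 were tested in this state, and 4 fell and 0 rose. Lgmn, the asparaginyl endopeptidase legumain that processes cathepsins to their mature forms, changed by -1.15 ± 0.22 (adjusted p = 6.6e-06, edgeR). Nagpa, which uncovers the mannose 6-phosphate tag of lysosomal enzymes, changed by -0.99 ± 0.29, Ctso, another papain-family cathepsin, by -0.80 ± 0.29, and Grn, the precursor of the lysosomal granulins, by -0.66 ± 0.20. Psap, Lamp1 and Lamp2 were among those not called.

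**Figure D3:**
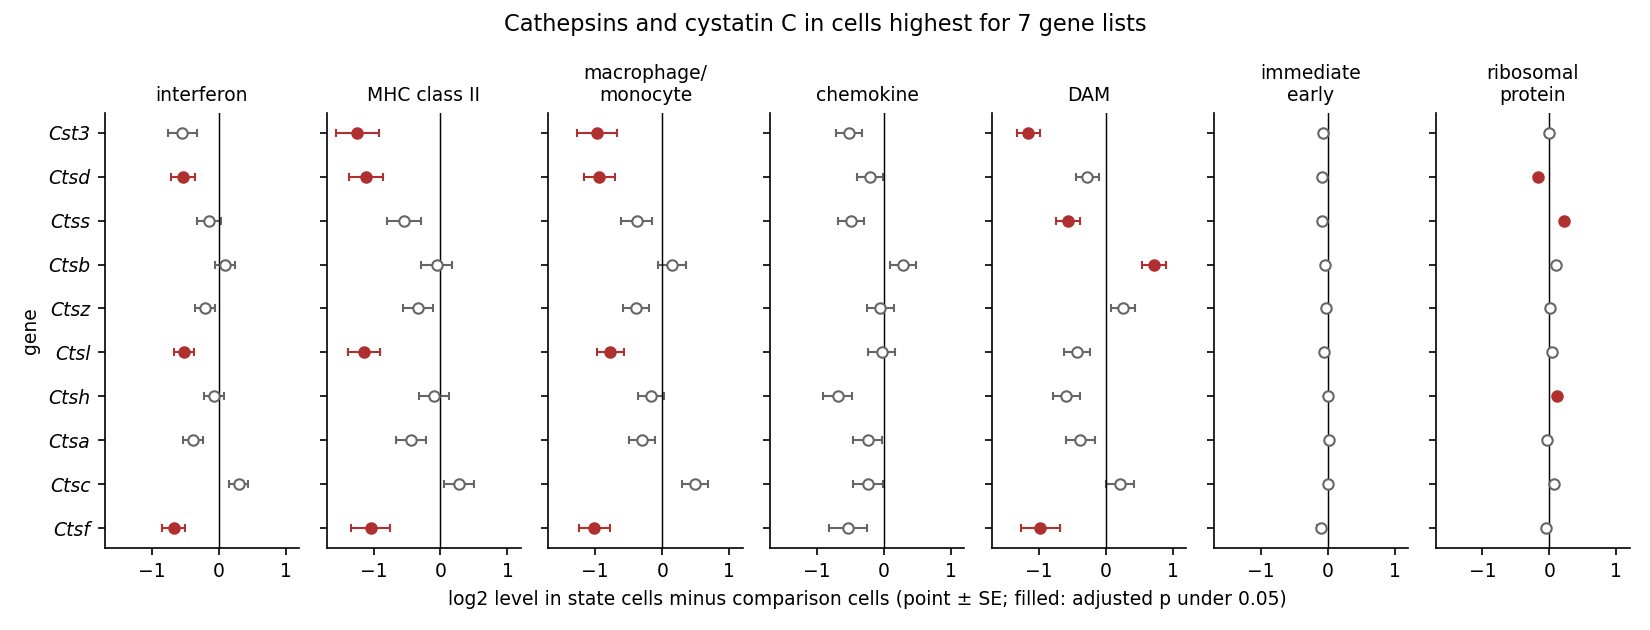
Change of each gene in log2 units (point ± SE) between state and comparison cells for the 7 lists, filled red where the adjusted p was under 0.05. The MHC class II, chemokine and DAM panels show the fits with all 4 libraries. Ctsd, Ctsf and Ctsl lie left of 0 in every panel, except Ctsl in the ribosomal protein panel. All of them are filled in the interferon, MHC class II and macrophage panels. Ctsb lies to the right in the DAM panel at 0.72.

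The cells high for MHC class II genes (78 cells, 8 to 41 per library) shared 48 cells with the macrophage and monocyte cells, 61.5% of the MHC class II cells and 40.7% of the others, so the 2 results are not separate. Cst3 had 23448, 32347, 20815 and 29983 CPM in them, against 53845, 57946, 66102 and 61926 CPM. Ctsl had 768, 1141, 375 and 713 CPM against 1785, 1749, 1450 and 1507 CPM. Ctsd had 5316, 8193, 4020 and 4642 CPM against 11095, 11671, 10619 and 11410 CPM. In each library all 3 were lower in the class II cells, without overlap between the groups. The microglial markers summed to 12434 to 25167 CPM in these cells and to 44626 to 46274 CPM in the others.

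With replicates 1 and 4, the 2 libraries with 15 or more such cells, 3 of the 10 genes fell and 0 rose, and 2.62% of all genes were called lower and 3.44% higher. These were Ctsd (-1.15 ± 0.34), Ctsf (-0.99 ± 0.30) and Ctsl (-1.08 ± 0.25, adjusted p = 5.9e-04, edgeR). With all 4 libraries 4 fell, where 3.71% of genes were called lower and 3.98% higher, with Cst3 at -1.24 ± 0.32 (adjusted p = 2.5e-03) beside Ctsd, Ctsf and Ctsl at -1.11, -1.04 and -1.14. Without replicate 1 Ctsd (-1.11) and Cst3 (-1.23) were not called, and without replicate 4 Ctsf was not. Ctss, the protease best known for class II antigen processing, had 6536, 7769, 5485 and 7655 CPM against 9661, 10234, 9204 and 9277 CPM. Its values did not overlap, yet the change of -0.55 ± 0.26 with all 4 libraries was not called (adjusted p = 0.22, edgeR). The median change over all genes in that fit was -0.38, and Ctss stood at -0.17 relative to it. With library totals in place of TMM in replicates 1 and 4, 1 gene rose (Ctsc) and 5 fell, and over all genes 362 were higher and 455 lower, in place of 344 and 262.

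Of the wider list Lgmn fell by 1.19 on the log2 scale in replicates 1 and 4 (adjusted p = 2.4e-03, edgeR), and with all 4 libraries Lgmn (-1.31 ± 0.25) and Grn (-0.68 ± 0.23) were called lower.

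Interferon-responsive cells (193 cells, 29 to 78 per library) had lower levels of Ctsf, Ctsl and Ctsd. Ctsf had 189, 241, 129 and 148 CPM against 270, 307, 280 and 305 CPM in the other cells. Ctsl had 1343, 1425, 947 and 835 CPM against 1789, 1750, 1452 and 1504 CPM, and Ctsd had 8508, 10039, 6468 and 6270 CPM against 11118, 11673, 10647 and 11376 CPM. In every library all 3 were lower in the interferon cells. The changes were -0.67 ± 0.17 for Ctsf (adjusted p = 1.7e-03, edgeR), -0.52 ± 0.15 for Ctsl (9.2e-03) and -0.53 ± 0.18 for Ctsd (0.036), so 3 of 10 fell and 0 rose. Over all 9727 genes 2.45% were called lower and 5.26% higher, and the median change was -0.14.

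The interferon cells overlapped the macrophage and monocyte cells and the MHC class II cells. Of the 193 interferon cells, 54 were also in those classes, and the macrophage and monocyte markers summed to 2516 to 17768 CPM in the interferon cells against 370 to 582 CPM in the others. With the macrophage, monocyte and MHC class II cells left out of both sides, Ctsf, Ctsl and Ctsd stood at -0.32, -0.19 and -0.21 and were not called. Of the 10 genes Cst3 alone was called, at -0.24 (adjusted p = 0.039, edgeR). Over all genes 144 of 9527 were called in that fit, in place of 750 of 9727. That fit also had fewer state cells, and the part of each in the lost calls was not tested. Without replicate 1, 3 or 4 in turn only Ctsf of the 10 was called. None of the 19 genes of the wider list tested was called in these cells.

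Cells high for DAM genes such as Lpl, Cst7 and Spp1 were few (58 cells, 12 to 19 per library). They are called DAM cells after the list, and not as a cell type. In them Ctsb and Cst3 went in opposite directions. Ctsb had 5024, 5252, 5491 and 4541 CPM in DAM cells and 2664, 2747, 2512 and 2535 CPM in the other cells. Cst3 had 28328, 33078, 38253 and 27247 CPM against 53795, 57920, 66029 and 61669 CPM. Neither pair of groups overlapped. Ctsz had 2822, 3069, 3068 and 2450 CPM against 2005, 2092, 1977 and 2029 CPM, also without overlap.

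With replicates 1 and 4 alone, Cst3 fell by 1.17 on the log2 scale (SE 0.33, adjusted p = 0.020, edgeR), where 1.27% of all genes were called lower and 1.82% higher, and Ctsb stood at 0.76 ± 0.26 (0.095). With library totals in these 2 libraries the calls changed places, with Ctsb called at 0.88 (adjusted p = 0.020, edgeR) and Cst3 not called at -1.05 (0.20). With all 4 libraries Ctsb rose by 0.72 ± 0.18 (adjusted p = 2.1e-03), where 2.04% of genes were called higher. Cst3 (-1.16 ± 0.17, 9.0e-10), Ctsf (-0.98 ± 0.29, 0.020) and Ctss (-0.56 ± 0.17, 0.026) fell, where 3.54% were called lower. The median change over all genes was -0.39, and -0.18 with library totals in place of TMM, a shift of the whole scale. Relative to the median of all genes Ctsb stood at 1.12, Ctsz at 0.65 and Cst3 at -0.76. With library totals Ctsb and Ctsz rose and Cst3 fell, Ctsf and Ctss were not called, and over all genes 321 were higher and 194 lower in place of 194 and 336.

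The DAM result also met the other classes, for 20 of the 58 cells were macrophage, monocyte or class II cells. The microglial markers summed to 20514 to 24095 CPM in DAM cells against 44556 to 45984 CPM. The macrophage and monocyte markers summed to 7593 to 25084 CPM in DAM cells, against 429 to 651 CPM in the others. In the macrophage and monocyte cells themselves they summed to 9534 to 24161 CPM. With the macrophage, monocyte and class II cells left out Ctsb was at 0.97 and Cst3 at -0.93. Both were still called, where 39 of 9364 genes were called higher and 145 lower. Without replicate 1 or 3 Ctsb was not called (0.72 and 0.70, adjusted p = 0.16 each, edgeR), while Cst3 was called whichever of the 4 libraries was left out. Ctsf was called without replicate 1 or 2 and Ctss without replicate 2 or 4, and without replicate 4 Ctsh was called lower at -0.82. When cells were chosen on 1 random part of the UMIs and measured on the other, the median of all genes moved to -1.14. Ctsb stood at 0.19, not called, and at 1.33 relative to that median, and Cst3 at -1.94, called, and at -0.80 relative to it. Of the wider list, Cstb, the cytosolic cystatin B, rose (1.54 ± 0.25) and Lgmn fell (-1.004 ± 0.180). Cst7, cystatin F, is itself in the DAM list, so its rise is no finding.

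**Figure D4:**
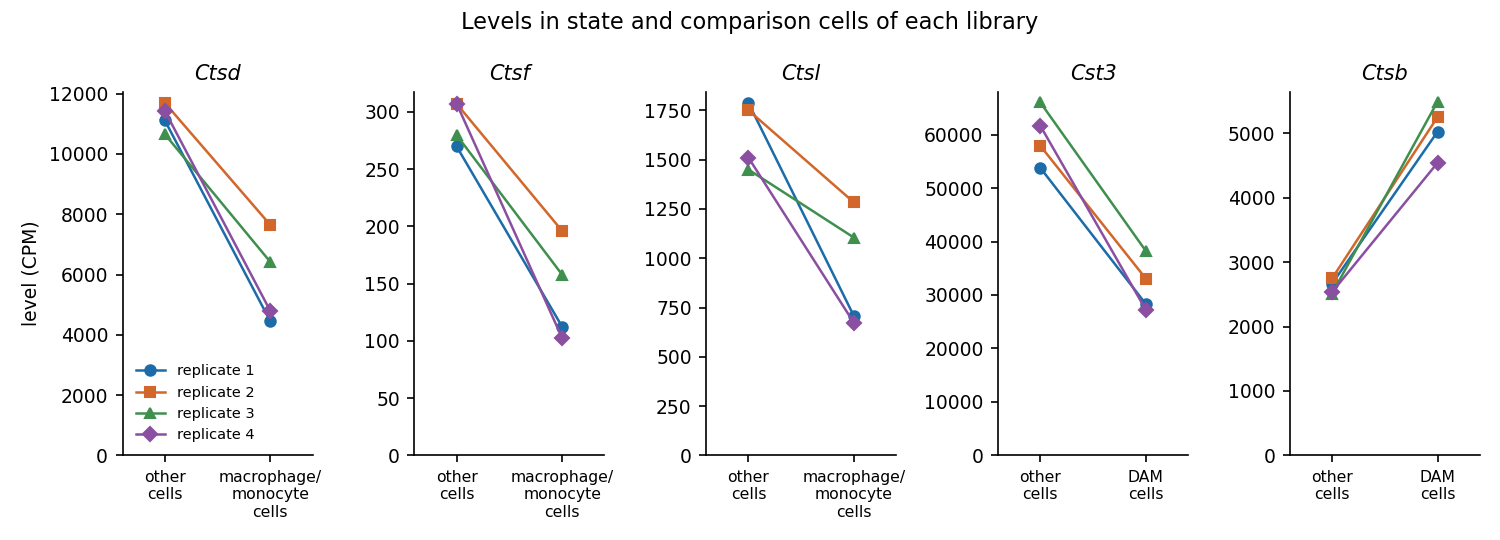
Level (CPM, axes from 0) of Ctsd, Ctsf and Ctsl in macrophage and monocyte cells, and of Cst3 and Ctsb in DAM cells, with a line per library from the other cells to the state cells. All lines fall except those of Ctsb, which end between 4541 and 5491 CPM.

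The cells high for Ccl3 and Ccl4 (64 cells, 5 to 33 per library) allowed a fit with all 4 libraries only, and 0 of the 10 genes were called, while 3 had an unadjusted p under 0.05 (edgeR) and DESeq2 also called 0. Over all genes 0.444% were called. Ctsb had 3064, 4425, 4929 and 4051 CPM in these cells against 2679, 2750, 2514 and 2534 CPM, without overlap, at a fitted change of 0.29 ± 0.19. Without replicate 4 Ctsh was called lower at -0.87. Ctsh had 806, 1118, 844 and 1077 CPM against 1354, 1419, 1114 and 1193 CPM, lower in every library at -0.69 ± 0.22 (adjusted p = 0.16). With library totals the median of all genes moved from -0.32 to -0.06, Ctsb was called higher, and over all genes 52 were higher and 7 lower, in place of 26 and 16.

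Cells rich in ribosomal protein transcripts (3105 cells against 3094 poor ones) showed small differences at high precision. Ctss had 10410, 10637, 9736 and 9759 CPM in the rich cells and 9161, 9814, 9111 and 8761 CPM in the poor cells. Ctsd had 10175, 10778, 9579 and 10276 CPM against 11930, 12398, 11868 and 12390 CPM, so the pair moved in opposite directions in all 4 libraries. Ctss rose by 0.22 ± 0.03 (adjusted p = 2.0e-07, edgeR) and Ctsh by 0.12 ± 0.04 (0.035), where 6.50% of all genes were called higher. Ctsd fell by 0.17 on the log2 scale (SE 0.03, 9.6e-05), where 3.81% were called lower. Ctsb at 0.10 ± 0.04 was just outside the threshold (0.051).

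Scaling mattered here, since ribosomal protein transcripts fill more of the rich cells by selection. With library totals 1 gene rose (Ctss) and 4 fell (Ctsa, Ctsd, Ctsf and Cst3), and over all genes 417 were higher and 975 lower in place of 586 and 344. The rise of Ctss and the fall of Ctsd were called under both scalings, and that of Ctsh under TMM only. Without replicate 1, 3 or 4 in turn Ctsh was not called. Of 18 genes of the wider list tested, 4 rose (Lamp1 0.18 ± 0.04, Psap 0.16 ± 0.04, Cstb 0.29 ± 0.07 and Cst7 0.72 ± 0.19) and 1 fell (Lgmn, -0.14 ± 0.03). The macrophage and monocyte markers summed to 848 to 2217 CPM in the rich cells and 218 to 390 CPM in the poor cells. Without the macrophage, monocyte and class II cells Ctss, Ctsd and Ctsh were still called, together with Ctsb.

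Between cells high and low for immediate early genes such as Fos and Jun (2368 and 2365 cells) none of the 10 genes was called by edgeR or DESeq2, and 3 had an unadjusted p under 0.05. Their changes lay between -0.10 and 0.01, with SEs of 0.02 to 0.06, and 0.481% of all genes were called. Cst3 had 51626, 55544, 64465 and 60136 CPM in the high cells against 54904, 59287, 67712 and 59312 CPM, lower in replicates 1 to 3 and higher in replicate 4. Without replicate 4 Cst3 and Ctss were called lower. The immediate early list itself summed to 3458 CPM in replicate 4 and to 1577 to 1783 CPM in the others, and the part of this in the result was not tested. None of the 18 genes of the wider list tested was called.

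The Cst3 to cysteine cathepsin ratio does not depend on scaling, since both counts come from the same cells. In DAM cells it was 1.44, 1.64, 2.02 and 1.56, against 2.91, 2.998, 3.86 and 3.53 in the other cells. In MHC class II cells it was 1.70, 1.96, 1.89 and 1.99, and in macrophage and monocyte cells 1.81, 2.56, 2.31 and 1.64. All state values in these classes were below every comparison value, the lowest of which was 2.91. In log2 units the differences were -0.998 ± 0.067, -0.81 ± 0.08 and -0.69 ± 0.18 (SE, n = 4), each lower in 4 of 4 libraries, with an exact sign-flip permutation p of 0.125 (two-sided), the smallest that 4 libraries allow.

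In interferon cells the ratio was 2.23, 2.43, 3.15 and 2.21, a difference of -0.41 ± 0.09 that was again lower in 4 of 4 libraries (exact permutation p = 0.125). Cells rich in ribosomal protein transcripts differed by -0.15 ± 0.015, also in 4 of 4. The chemokine cells differed by -0.25 ± 0.12, lower in 3 of 4 libraries (exact p = 0.25), and the immediate early cells by -0.01 ± 0.01, lower in 2 of 4 (exact p = 0.5). These are 7 comparisons in all, and none can pass 0.05 with 4 libraries.

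**Figure D5:**
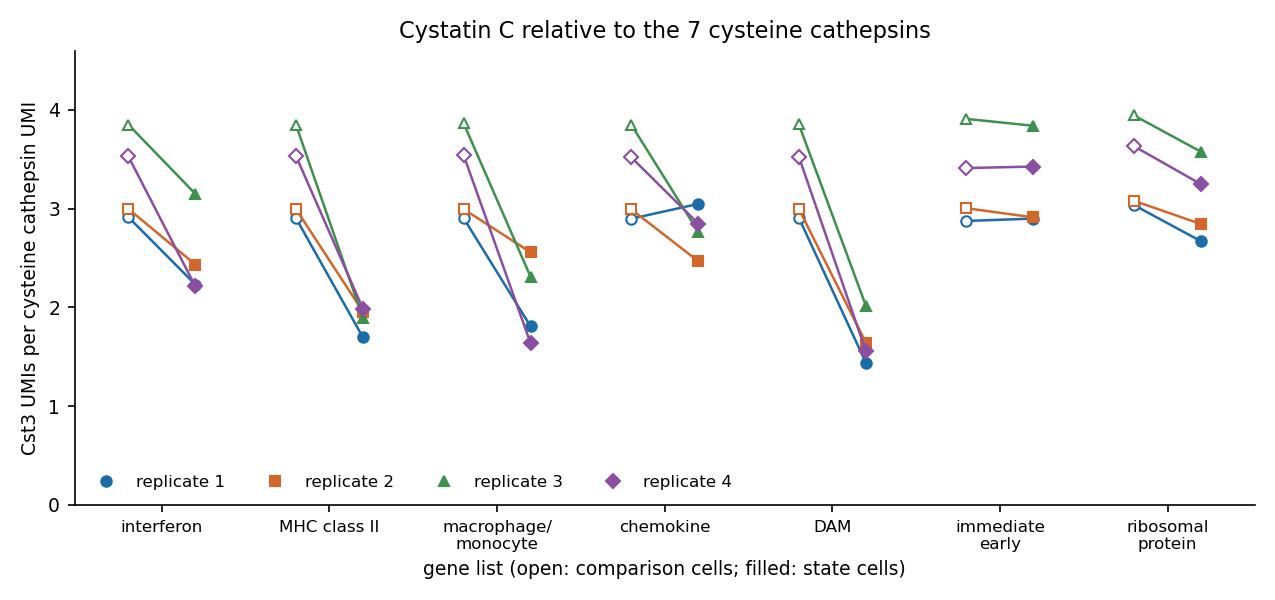
Cst3 UMIs per UMI of the 7 cysteine cathepsins in comparison cells (open) and state cells (filled) of each library, for the 7 lists. The ratio lies between 2.91 and 3.86 in the comparison cells of the DAM panel and between 1.44 and 2.02 in the DAM cells.

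The rest of the lysosomal genes set the 10 in context. Of the 25 further genes, 18 had a mean of 10 CPM or more. Lgmn led at 6640 ± 194 CPM, below Ctsd and Ctss and above the other 7 cathepsins, followed by Psap, the precursor of the saposins, at 2736 ± 92.9 CPM. Grn had 1812 ± 102 CPM and Lamp1, a protein of the lysosomal membrane, 1289 ± 62.6 CPM. The transcription factors Tfe3, Tfeb and Mitf were at 111 ± 2.15, 35.9 ± 2.98 and 24.4 ± 3.76 CPM. Cstb had 128 ± 7.61 CPM, far below the 59706 CPM of Cst3.

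Some cathepsins were at or near 0. Ctsg and Cst6 had 0 UMIs in all libraries, and Ctsk, a cathepsin of bone-resorbing osteoclasts, had 1 UMI in all 4. Ctsk lies 17423 bases from Ctss on chromosome 3, so neighbours on the chromosome differed from 1 UMI to 320389 UMIs. Ctse had 3 UMIs and Ctsw, known from cytotoxic lymphocytes, 18 UMIs. Igf2r, the large mannose 6-phosphate receptor that carries cathepsins to lysosomes, had 1 UMI, while M6pr, the small one, had 249 ± 2.40 CPM.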

How the data were processed

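Droplet libraries (10x Genomics 3′ version 2 chemistry) were made from the sorted cells of each mouse. The deposited values were UMI counts per gene and cell, made by the authors with Cell Ranger 2.2.0 on mm10 with a filtered Ensembl annotation and not normalized. Version and build are from the submitters' processing notes and the study's methods. From these counts, cells with fewer than 400 genes or over 10% mitochondrial UMIs were removed. Doublets were not removed. CPM were computed from the summed counts of each library, or of each library and state. Cells were thinned to 1000 UMIs for detection, Fano factors and state cuts. Summed counts were tested with edgeR 4.0.16 (quasi-likelihood, TMM, filterByExpr, library as a block) and, as an alternative, DESeq2 1.42.0, in R 4.3.3. SE was the log2 change divided by the square root of the test's F. Levels per library were compared on log2(CPM + 1), over genes at 10 CPM or more. Scripts ran in Python 3.11.15 and were tested on simulated data. Intervals cover counting error only, at 95%. Library pairs differed by more than counting noise (chi-square per degree of freedom 4.00 to 8.54), so each library counted once.

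The 10 genes, the state lists and the 25 related genes were chosen with earlier results of these data known. Every one of the 10 is named. Of the related genes, those called in a state or at 10 CPM or more could be named. Ctsg, Cst6, Ctsk, Ctse, Ctsw and Igf2r were named after their values were seen. The genes most like Ctsd across cells are not reported here.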

Additional observations from a re-analysis of the deposited data

Results flagged for a closer look

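Results with 1 library far from the other 3 were looked for with Dixon's range test, which by chance marks about 1 in 20 groups. None of the 10 genes was marked by its level. Tfe3, one of the factors that bind CACGTG, had 112, 112, 113 and 108 CPM in replicates 1 to 4, and replicate 4 stood below the others with a ratio of 0.885. The difference is 1.04-fold between the highest and the lowest library. The immediate early list summed to 1577, 1783, 1627 and 3458 CPM, and replicate 4 stood above the others with a ratio of 0.890. The Fano factor of Ctsa was lowest in replicate 3 at 0.972, with a ratio of 0.852 and a range over the libraries up to 1.09. What sets these libraries apart was not tested.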

How the results depend on the processing

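Of 1314 values of single genes under other settings, 1158 kept their side of the threshold, 81 became called and 75 lost their call. In 90 the sign differed from that first reported, and 0 of these were called in either fit. Ctsb in MHC class II cells, for example, was 0.11 with 2 libraries and -0.06 with all 4. Some of the 1314 values could not differ, so the number that held is too high. The smaller cut for DAM cells repeated the first fit, with 307 of 9926 genes called in both. The chemokine fit with a separate part of the UMIs was entered more than once. The summed share of members, the 10 genes together, was 8.83% to 9.17% with a library left out and 9.92% with mitochondrial and ribosomal protein genes taken out of the totals. For interferon cells (3 genes called), 5 were called with no filter on low counts and 5 with a cut at a smaller share of cells, and 1 each without the replicate block, with a log2 change over 0.58 also required, and without macrophage, monocyte and class II cells. Leaving out a library gave 1 to 4. Over all genes 750 of 9727 were called, 857 of 14397 with no filter and 659 of 9587 at the smaller share. The all-gene count was 711 without the block, 641 with the required log2 change and 144 of 9527 without those classes. For MHC class II cells (3 called), DESeq2 called 1 and library totals 6. With all 4 libraries 4 were called, 5 with totals, 5 with states cut on a separate part of the UMIs and 5 with a cut at double the share, which brought all 4 libraries in. Leaving out a library gave 2 to 4. Over all 9990 genes 606 were called with 2 libraries, 281 with DESeq2 and 817 with totals. With all 4 libraries the all-gene count was 735 of 9559, and 899 with totals. It was 365 of 8376 with the separate part and 747 of 9664 at double the share. For chemokine cells (0 called), 1 was called with totals and 1 with a cut at double the share, and 0 to 1 with a library left out. Over all genes 42 of 9465 were called, 59 with totals and 46 of 9740 at double the share. For DAM cells (1 called), 2 were called without the replicate block. With all 4 libraries 4 were called, 3 with a cut at double the share (which brought all 4 in), 3 with totals, 3 with DESeq2, 5 without the replicate block, 3 with a separate part of the UMIs, 3 with comparison cells weighted by depth, and 2 without macrophage, monocyte and class II cells. Leaving out a library gave 1 to 4. Over all genes 307 of 9926 were called with 2 libraries, and 505 without the block. With all 4 libraries the all-gene count was 530 of 9504, 515 with totals, 305 with DESeq2 and 736 without the block. It was 296 of 8144 with the separate part, 447 of 7677 with weighted cells and 184 of 9364 without those classes. For immediate early cells (0 called), 1 was called with no filter and 1 with a cut at the median, and 0 to 2 with a library left out. For cells rich in ribosomal protein transcripts (3 called), 5 were called with totals, 1 without the replicate block and 0 with the required log2 change, and 2 to 4 with a library left out. Over all genes 930 were called, and 1392 with totals. The macrophage and monocyte count (4) was 3 to 4 with a library left out, 5 without the replicate block, 5 with weighted comparison cells, 5 with a separate part of the UMIs and 3 at the smaller cut, which left 2 libraries. Over all genes the count was 1011 of 9674, 1159 without the block and 879 of 6839 with weighted cells. It was 551 of 8527 with the separate part and 628 of 9940 at the smaller cut. Ctsc was called higher without the block and with weighted cells, and in interferon cells with a cut at double the share. The cause of these changes was not tested. The fits with all 4 libraries were added after seeing the data. The planned chemokine fit could not be made, and no library could be left out of the fits with 2 libraries. The replicate block was the library itself, and the replicate numbers pair no groups. Few state cells limit the rare classes.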

Other observations

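Within libraries, Cst3 was higher in cells with more UMIs. From the lowest to the highest 25% of cells by UMIs its mean was 54137, 57196, 60204 and 63441 CPM, rising in every library. Ctsc went the other way, at 803 CPM in the lowest and 649 CPM in the highest 25%, and Ctsh at 1422 and 1210 CPM, while Ctsd stood at 11101 and 11369 CPM. The 4 groups of cells come from the same libraries and differ in depth by construction.

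Across thinned cells within a library, Cst3 and Ctss varied together with a mean Pearson r of 0.298 (0.282 to 0.317 over the 4 libraries), and Cst3 and Ctsd with 0.169. The mean r of Cst3 with Ctsc was -0.0618. Among 1456 genes, the pattern most like that of Cst3 was C1qb, a subunit of complement C1q (mean r 0.333), followed by Itm2b (0.266) and C1qc (0.234). For Ctss these were C1qb (0.219), Itm2b (0.175) and B2m (0.147). For Ctsb they were Cd63 (0.111), C1qb (0.103) and H2-D1 (0.0771). Cells share library and depth, and abundant genes show more of any shared variation, so these values are descriptions.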
